A study of Mus musculus with 2 samples.

Results

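The genes for haptoglobin and iron handling were followed in the mouse microglial cell line BV2 cultured in DMEM/F12 or in DMEM. The group holds 10 genes given by name: haptoglobin (Hp), the transferrin receptor (Tfrc), both ferritin chains (Fth1 and Ftl1), the iron exporter ferroportin (Slc40a1), the divalent metal transporters Slc11a1 and Slc11a2, lipocalin 2 (Lcn2) and the iron regulatory proteins Aco1 and Ireb2. Of these, 9 were measured, among 19938 genes in all. Slc11a1 is named by no transcript cluster in the annotation used here. The group was chosen by the log2 difference of Hp between these same 2 arrays together with its known place in iron handling, so every difference between the media given for these genes is a description.

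BV2 is an immortalized line derived from mouse microglia, the macrophages of the brain. Cells received either DMEM/F12, a richer medium, or DMEM, both with serum. The labels give an incubation of over 1 day. Per the study's methods all cells had first been plated in DMEM/F12, so on exchange the DMEM/F12 cells received the same medium again and the DMEM cells a different one. RNA of each culture was hybridized to 1 Affymetrix Mouse Gene 1.0 ST array, which leaves 1 array per medium, no replicate error and no p-value. Every comparison is between these 2 arrays, and culture and medium cannot be told apart.

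Cells take up most iron as transferrin through the transferrin receptor, store the surplus in ferritin and release it through ferroportin. The iron regulatory proteins bind hairpins called iron responsive elements in the messages of these genes: when iron is scarce they stabilize Tfrc mRNA and block translation of ferritin and ferroportin. Much of this control therefore acts on mRNA stability for Tfrc but on translation for ferritin, which an mRNA array does not read. Macrophages also recover iron from hemoglobin, which haptoglobin binds in plasma, and in inflammation they restrict iron from microbes, in part through lipocalin 2. DMEM/F12 contains ferrous sulfate, which the study lists among the components that DMEM lacks. The total iron in either medium, serum included, is not known here. Whether iron has a part in any difference between the arrays was not tested.

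Values are log2 signals, and each difference is DMEM/F12 minus DMEM. Receptor genes for smell, taste and pheromones, 1243 clusters in all, set the background at their 95th percentile, 4.17 in DMEM/F12 and 4.15 in DMEM. Above it on at least 1 array were 13225 genes, or 66.3%. The size of the difference had a median of 0.15 over all genes and a 95th percentile of 0.45. Of the markers of microglia and macrophages, 11 of 13 measured were above background, among them Itgam, Csf1r and Cd68, while Aif1 and P2ry12 were not. Of 13 neutrophil granule markers, 7 were above background on at least 1 array. These were Elane, Mmp9 and Camp on both arrays, and Mpo, Prtn3, S100a9 and Cxcr2 in DMEM only. Ctsg, Ngp, Ltf, S100a8, Ly6g and Mmp8 were above it on neither. The 13 had values of 2.67 to 4.99 in DMEM/F12 and 2.83 to 4.63 in DMEM. In DMEM/F12 5 of the 13 were higher and 8 lower, and of the 7 above background 2 were higher and 5 lower. Over all genes 47.2% were higher and 45.5% lower. Of 8 measured hepatocyte markers 3 were above background (Apoa1, Apoa2 and Hnf4a) and albumin (Alb) was not. Their values were 2.72 to 5.57 in DMEM/F12 and 2.55 to 5.39 in DMEM. In DMEM/F12 6 of the 8 were higher, only 2 of them above background, where 47.2% of all genes were higher. Of 9 measured markers of astrocytes, neurons and oligodendrocytes 4 were also above background. A value above background is therefore not read as the presence of a cell type. Whether signal from other cell types has a part in the Hp difference was not tested. Of 4 measured erythroid markers 3 were above background, with no value over 5.00 on either array.

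Hp was 2.64-fold higher in DMEM/F12, Slc40a1 1.40-fold higher and Tfrc 1.52-fold lower, while the ferritin, Slc11a2, Aco1 and Ireb2 clusters differed by less than 1.2-fold. Of the 9 measured genes 4 were higher in DMEM/F12, 3 were lower and 2 were equal, with a median difference of 0.00. Over all genes 47.2% were higher and 45.5% lower, and the median was also 0.00. At 2-fold or more, Hp was the only one of the 9, against 0.0602% of all genes higher and 0.0251% lower. At 1.5-fold or more there was Hp above and Tfrc below, where 0.928% of all genes were higher and 0.727% lower. Since these differences also led to the choice of the group, nothing is read from these shares.

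**Figure D1:**
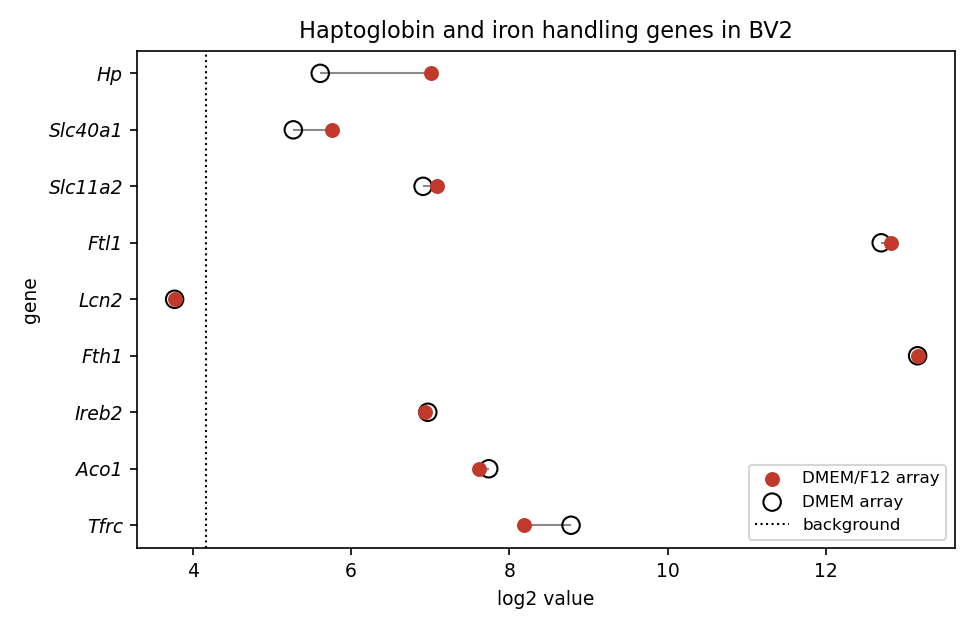
Log2 value (x axis) of the 9 measured haptoglobin and iron handling genes (y axis, the highest difference on top), red circles for the DMEM/F12 array and open circles for the DMEM array, paired by gray lines, with a dotted line at the DMEM/F12 background of 4.17. Hp lies at 7.01 in DMEM/F12 and 5.61 in DMEM, Tfrc at 8.18 in DMEM/F12 and 8.78 in DMEM, and Lcn2 left of the background line on both arrays.

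Hp encodes haptoglobin, an acute phase protein made mainly by the liver and also by myeloid cells. Its single cluster (10581605) read 7.01 on the log2 scale in DMEM/F12 and 5.61 in DMEM. Both values were above background, and the difference of 1.40 was the highest of all 19938 genes. The closest differences among genes above background were those of Spink5, a serine protease inhibitor (1.21), Fam20c, a Golgi kinase of secreted proteins (1.18), and Klhl38 (1.13). With 2 arrays this likeness rests on 1 difference per gene, and it says nothing of a shared pattern over samples.

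**Figure D2:**
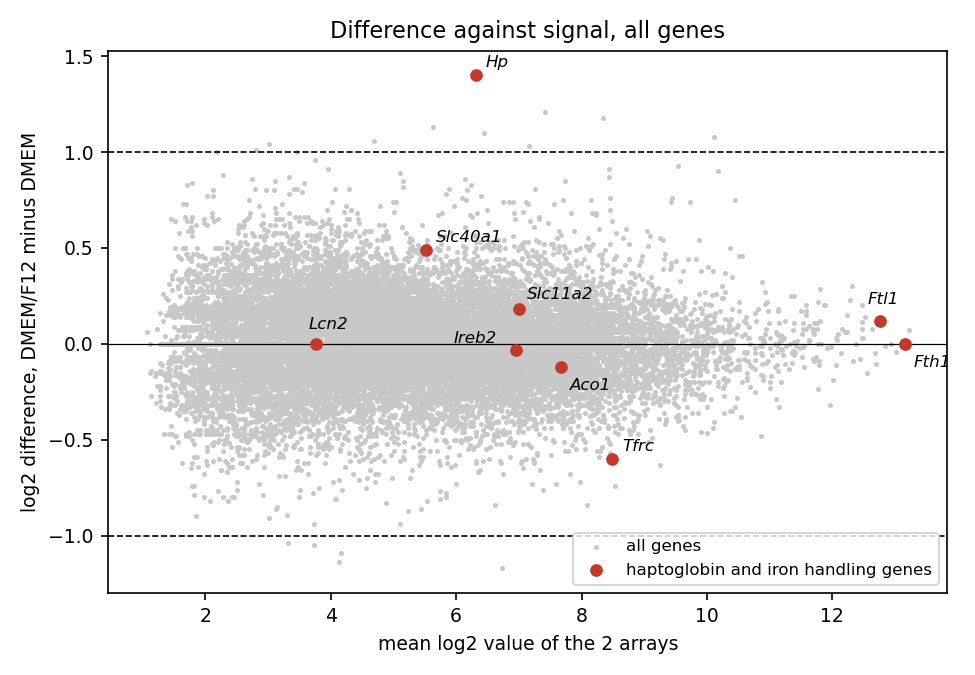
Each gray dot is 1 of 19938 genes, placed by the mean of its log2 values (x axis) and by its log2 difference (y axis, DMEM/F12 minus DMEM), with the 9 measured haptoglobin and iron handling genes in red and dashed lines at 2-fold. Hp is the topmost point at 1.40, Tfrc lies at -0.60 near the lower edge of genes of its signal, and the other 7 lie between -0.12 and 0.49.

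Among the iron transport genes of the group, Tfrc was lower in DMEM/F12 and Slc40a1 and Slc11a2 were higher. Tfrc, the receptor that carries transferrin-bound iron into the cell, read 8.18 in DMEM/F12 and 8.78 in DMEM (cluster 10435075). The difference of -0.60 was among the lowest, with 0.617% of all genes lower still. Slc40a1, the ferroportin gene and the known route of iron out of the cell, had 5.76 in DMEM/F12 and 5.27 in DMEM (cluster 10354374). Its difference of 0.49 exceeded that of 97.9% of all genes. Slc11a2, which encodes DMT1, the transporter that moves iron from the endosome into the cytosol, had 7.09 in DMEM/F12 and 6.91 in DMEM (cluster 10432573). Its difference of 0.18 was close to the median size of 0.15.

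The ferritin genes lay almost level. Fth1 encodes the heavy chain with the ferroxidase activity, and its cluster (10461402) read 13.16 on both arrays. Ftl1 encodes the light chain, and its cluster (10447591) had 12.82 in DMEM/F12 and 12.70 in DMEM. The annotation names Ftl1 on 4 further clusters, together with Mir692-2 and Mir692-3. Over all 5 clusters the difference was 0.12 to 0.23, or 1.09-fold to 1.17-fold, and it was higher in DMEM/F12 in each. These clusters list overlapping transcripts and share 1 RNA per medium, so they are not independent, and signal from ferritin pseudogenes could not be separated. The highest value of any cluster was 13.66 on both arrays, and whether ferritin signals so near it were compressed was not tested.

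The sensors of iron were close to equal. Aco1 encodes IRP1, a cytosolic aconitase that becomes an RNA-binding protein when it loses its iron-sulfur cluster, and had 7.62 in DMEM/F12 and 7.74 in DMEM (cluster 10503966). Ireb2 encodes IRP2, which is degraded when iron is plentiful, and had 6.94 in DMEM/F12 and 6.97 in DMEM (cluster 10585444). Both differences, -0.12 and -0.03, were smaller in size than the median of 0.15 for all genes. Lcn2, the siderophore-binding lipocalin, read 3.77 on both arrays (cluster 10481627) and was not above background on either, so no fold is given.

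The annotated starts of the receptor and ferritin genes are shown because Tfrc and ferritin are the opposite arms of cellular iron balance and Tfrc was lower in DMEM/F12 while ferritin lay almost level. Each stretch runs from 80 bases before to 20 bases after a RefSeq start in GRCm38.p6, 5′ to 3′ on the gene's strand: Tfrc at chr16:32608816-32608915 (plus strand), Fth1 at chr19:9982566-9982665 (plus strand) and Ftl1 at chr7:45459867-45459966 (minus strand). Capitals mark a CCAAT box (CCAAT or ATTGG), a GC box (GGGCGG or CCGCCC) or the hypoxia response core (ACGTG or CACGT), searched on both strands.
Tfrc: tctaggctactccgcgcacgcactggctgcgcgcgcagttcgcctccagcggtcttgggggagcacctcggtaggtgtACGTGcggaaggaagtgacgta
Fth1: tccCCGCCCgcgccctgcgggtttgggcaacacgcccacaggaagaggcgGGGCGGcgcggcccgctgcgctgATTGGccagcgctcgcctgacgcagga
Ftl1: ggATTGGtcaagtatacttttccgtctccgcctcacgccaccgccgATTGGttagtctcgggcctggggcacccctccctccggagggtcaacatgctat
The Tfrc stretch printed holds 1 hypoxia response core and no CCAAT box, that of Fth1 1 CCAAT box and 2 GC boxes, and that of Ftl1 2 CCAAT boxes. Of 32851 RefSeq windows of the same 100 bases, 17.3% hold a CCAAT box, 24.4% a GC box and 8.21% the hypoxia response core. A TATA box (TATAAA or TTTATA), found in 5.31% of windows, is in none of the 9 windows that 7 of the 10 genes have in the table. Tfrc and Fth1 each have a further annotated start, which for Tfrc holds 2 GC boxes and for Fth1 none of these motifs. Which motifs differ between the genes therefore depends on the start shown. A match describes the letters only. Iron responsive elements, through which iron acts on these messages, were not searched for. Whether any of the motifs has a part in the Tfrc difference was not tested. Hp, Slc40a1 and Slc11a2 are not among those 7 genes.

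Genes that handle hemoglobin and heme beside haptoglobin were split between the media, and the haptoglobin receptor was not above background. Of 14 measured genes of heme and hemoglobin scavenging and export, 8 were higher and 6 lower, with a median difference of 0.07. Over all genes 47.2% were higher and 45.5% lower. Of the 14, 3 were not above background, and of the 11 above it 7 were higher and 4 lower. Cd163, the macrophage receptor for the complex of haptoglobin and hemoglobin, read 3.37 in DMEM/F12 and 3.39 in DMEM and was not above background. Blvrb, a biliverdin reductase, had 8.71 in DMEM/F12 and 8.19 in DMEM (0.52). Hpx, which encodes the heme-binding plasma protein hemopexin, had 4.63 in DMEM/F12 and 4.24 in DMEM (0.39), close to background. Bach1, a repressor that heme inactivates, had 6.68 in DMEM/F12 and 6.29 in DMEM (0.39). Slc46a1, a transporter of folate and heme, went the other way with 5.80 in DMEM/F12 and 6.24 in DMEM (-0.44). Hmox1, the heme oxygenase that frees iron from heme, differed by 0.09, and was picked with Cd163 after their values were seen.

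Most genes of heme synthesis were lower in DMEM/F12. Of 10 measured genes 9 were lower in DMEM/F12 and 1 was higher, where 45.5% of all genes were lower. All 10 were above background, but Alas2, among those lower, was close to it. The median difference was -0.12, beside 0.00 over all genes. No gene differed by more than 0.25 in size, where the median size over all genes was 0.15. With 1 array per medium, differences this small cannot be told from variation between cultures or arrays. Alad, the enzyme that joins aminolevulinate into porphobilinogen, had 8.32 in DMEM/F12 and 8.57 in DMEM (-0.25). Slc25a38, a mitochondrial glycine carrier, differed by -0.18, Cpox by -0.17 and Uros by -0.15. Fech, which inserts iron into the porphyrin ring, was the 1 higher gene, at 0.11, and was picked after its value was seen.

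**Figure D3:**
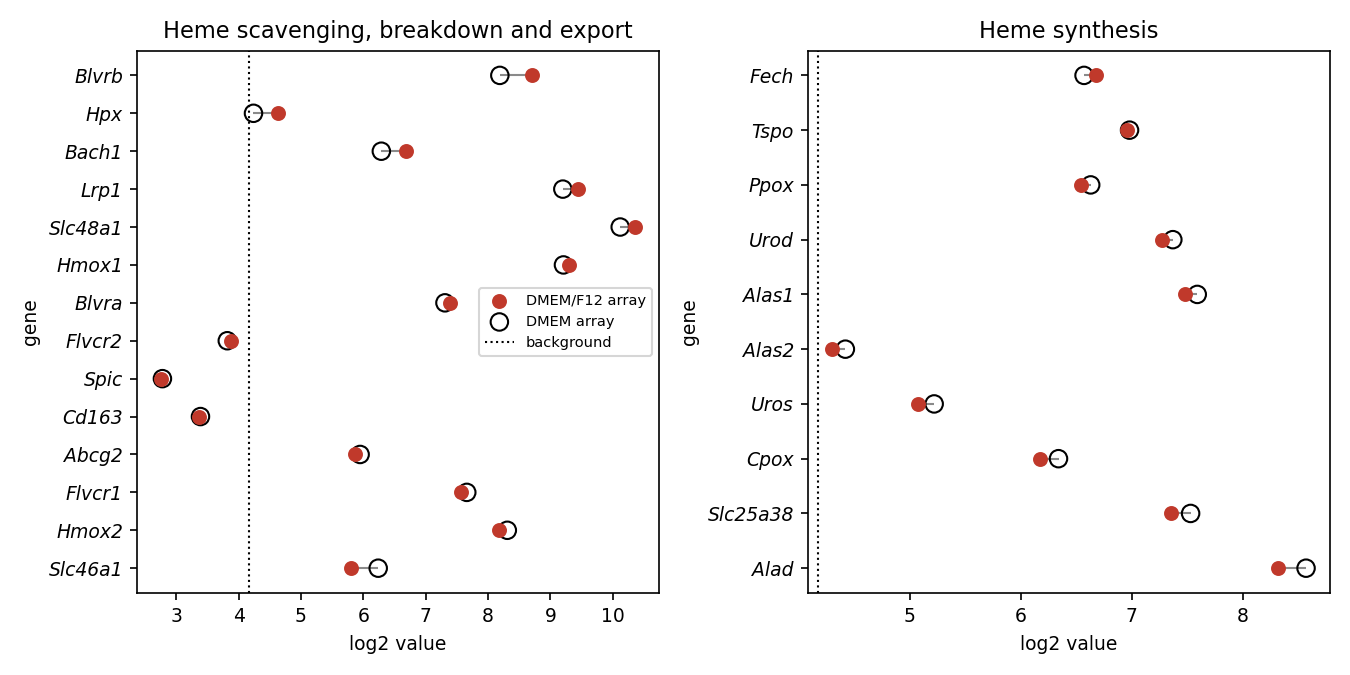
Log2 value (x axis) of genes of heme scavenging, breakdown and export (left panel, 14 genes) and of heme synthesis (right panel, 10 genes) on the DMEM/F12 array (red circles) and the DMEM array (open circles), genes ordered by difference on the y axis and background dotted. The red circle lies left of the open circle for 9 of the 10 synthesis genes, and Cd163 lies below background on both arrays.

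Other genes that bring iron into the cytosol were split. Among 16 measured genes of iron uptake and reduction, 7 lay higher and 7 lower. Their median was 0.00, and over the 8 above background the median was -0.09. The 3 with the lowest differences are named first, and no shared role is read from them. Steap3, the endosomal ferrireductase, had 7.99 in DMEM/F12 and 8.36 in DMEM (-0.37). Slc39a14, the ZIP14 metal transporter, had 6.57 in DMEM/F12 and 6.87 in DMEM (-0.30), and Mcoln1, a cation channel of late endosomes and lysosomes, differed by -0.24. Slc22a17, a receptor for lipocalin 2, differed by 0.20.

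In the list of storage, release and iron chaperones 5 of 11 genes lay higher and 5 lower, around a median of 0.00. Ncoa4, the receptor that delivers ferritin to autophagy, averaged 8.73 in DMEM/F12 and 8.29 in DMEM over its 2 clusters (0.44). Glrx3, a glutaredoxin that works with Bola2 in cytosolic iron-sulfur cluster delivery, had 4.97 in DMEM/F12 and 5.63 in DMEM, 1.58-fold lower, and Bola2 differed by -0.22. Fbxl5, the ubiquitin ligase subunit that targets IRP2, differed by -0.21. Among mitochondrial iron and iron-sulfur cluster genes 13 of 21 were lower and 8 higher, against 45.5% and 47.2% of all genes. Their median was -0.09. Nubp2, a scaffold of cytosolic iron-sulfur proteins, had 8.67 in DMEM/F12 and 9.14 in DMEM (-0.47), Glrx5 differed by -0.32 and Cisd2 by -0.31, while Nfs1, the cysteine desulfurase that supplies the sulfur, was higher by 0.35.

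Other messages known to carry an iron responsive element showed no common direction. Of 5 measured, 2 were higher and 2 lower. Epas1, which encodes the hypoxia-inducible factor HIF-2α and has its element in the same part of the message as ferritin, had 8.56 in DMEM/F12 and 8.09 in DMEM (0.47). Alas2, the erythroid first enzyme of heme synthesis, had 4.30 in DMEM/F12 and 4.42 in DMEM (-0.12), close to background. Cdc14a differed by -0.08. Cdc42bpa had 4.18 in DMEM/F12 and 3.92 in DMEM, below background, and its difference of 0.26 becomes 0.03 with that value raised to background.

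Hp is itself an acute phase gene. Of 23 measured acute phase genes, Hp and Lcn2 among them, 14 were higher in DMEM/F12 and 6 lower, with a median of 0.08. Over all genes 47.2% were higher and 45.5% lower. But 15 of the 23 were not above background, and 6 of the 8 above it were higher, Hp included. With values below background raised to it the median was 0.02, the difference that every gene below it on both arrays then takes. Of those above background, Hpx differed by 0.39, Saa3, a serum amyloid made by macrophages, by 0.19 and Itih3 by 0.18. Hpx and Itih3 were close to background. Factors of IL-6, STAT3 and C/EBP signalling are known to drive Hp in liver. The list of their regulation also holds other genes, such as Socs3, Bcl3 and Nfkbiz. Of its 19 genes 12 lay higher and 6 lower, against 47.2% and 45.5% of all genes, around a median of 0.06. But 4 of the 19 were not above background, and of the 15 above it 9 were higher and 5 lower. With values below background raised to it this median too was 0.02. Il6 was below background at 1.96 in DMEM/F12 and 1.58 in DMEM, and Socs3 differed by -0.01. Both were picked after their values were seen. Bcl3, a nuclear partner of NF-κB, had 6.35 in DMEM/F12 and 5.99 in DMEM (0.36), Nfkbiz differed by 0.28, the cytokine gene Osm by 0.26 and the kinase gene Tyk2 by 0.19. The C/EBP genes Cebpa, Cebpb, Cebpd and Cebpe, picked after their values were seen, differed by 0.04, 0.08, -0.08 and -0.02, and Stat3 by -0.11. Cebpd was close to background.

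**Figure D4:**
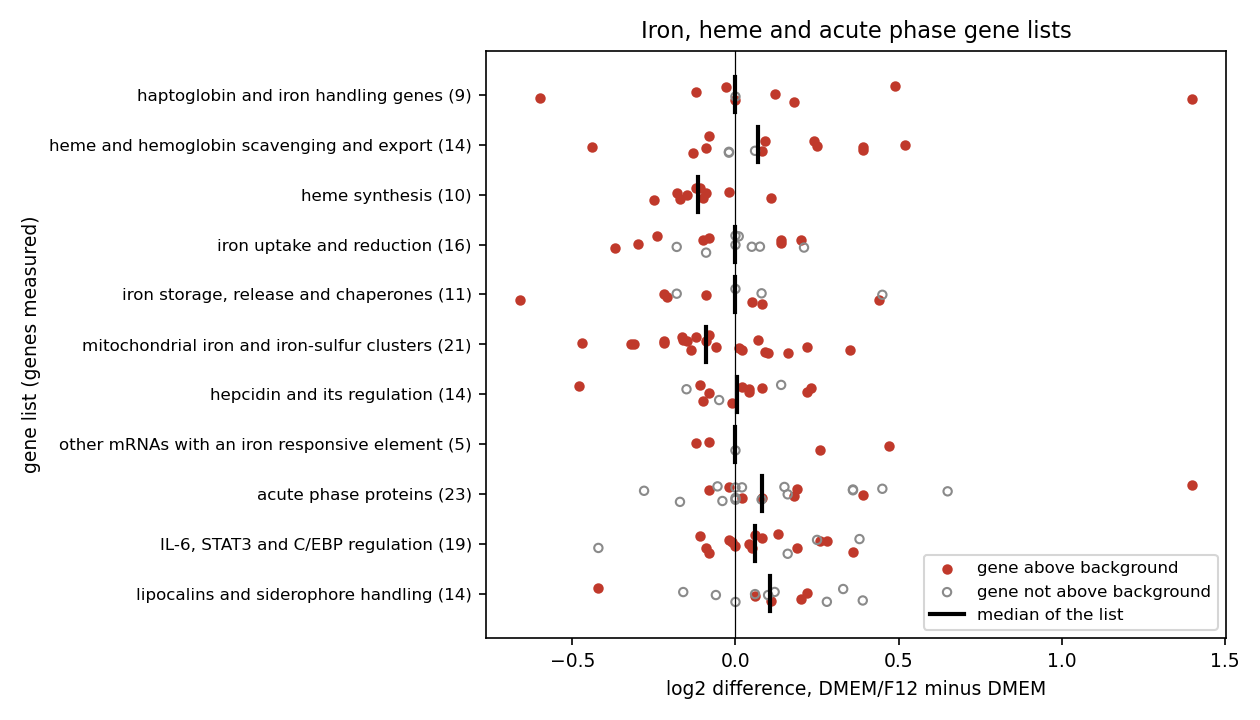
Genes of 11 lists (y axis, the count of measured genes in parentheses) by their log2 difference (x axis, DMEM/F12 minus DMEM), red where the gene was above background on at least 1 array and open where it was not, with a black bar at the list's median. The bars lie between -0.12 for heme synthesis and 0.11 for lipocalins and siderophore handling, and the point farthest from 0 is Hp at 1.40, which is in 2 of the lists.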

How the data were processed

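Total RNA from BV2 cells in DMEM/F12 and in DMEM was hybridized to 1 Affymetrix Mouse Gene 1.0 ST array each. For 28944 transcript clusters the authors deposited log2 values, made in Transcriptome Analysis Console and Affymetrix Expression Console. Software versions, summarization, between-array normalization and build were not given in the sources used here. Array medians were 4.77 in DMEM/F12 and 4.75 in DMEM, and the values were used without further scaling.

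The platform annotation gave 21789 clusters 1 gene symbol, 1621 several and 5534 none. Only the first were named, and 999 genes with several clusters take their mean. The log2 difference was DMEM/F12 minus DMEM, called at 2-fold. Old symbols in lists were updated through RefSeq (GRCm38.p6), which also gave the promoter sequences. Precision is limited by the number of arrays.

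The 10 genes and the lists were chosen with earlier results of these data known. Named are those 10 genes, in each other list up to 4 genes above background with the largest differences, and the 3 genes nearest to Hp. Alternatives were median, quantile and loess (span 0.3) scaling, values below background (95th or 99th percentile) raised to it, genes above background alone, the brightest cluster of each gene, and a 1.5-fold threshold. Python 3.11.15, numpy 2.4.6, pandas 2.3.3, statsmodels 0.14.6 and matplotlib 3.10.9 were used, and the steps were tested on simulated data.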

Additional observations from a re-analysis of the deposited data

How the results depend on the processing

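No paired analysis was possible because there was a single array in each medium, so no replicate could be left out. A shift of 0.1 or more on the log2 scale counted as a move. None of 132 recomputed values reached it, and the largest shift was 0.09. The list medians lay only between -0.12 and 0.11, so they could hardly reach that bar. With values below background raised to it, the lipocalin median went from 0.11 to 0.02 and the acute phase median from 0.08 to 0.02. Single genes of the other lists were not among the 132. The Hp difference was 1.38 to 1.41 over 6 settings, the Tfrc difference -0.62 to -0.58 and the Slc40a1 difference 0.47 to 0.49. For these genes and the others of the 8 members above background, each with 1 cluster, raising to background and the brightest cluster return the deposited value by construction. Median centring moves every difference by the same 0.02, so it could not reach the bar for any value. After loess scaling Tfrc fell just short of 1.5-fold. With a 1.5-fold threshold the number of the 10 genes past it in the lower direction became 1 instead of 0, which was Tfrc. The median over the 9 measured genes was 0.00 as deposited, -0.02 with median centring, -0.01 after loess, 0.01 after quantile normalization and 0.06 over genes above background, so it has no stable sign. Heme synthesis had 9 of 10 genes lower under each of the 3 scalings. The mean over all clusters that name Ftl1, chosen after seeing the data, was 0.17 against 0.12. Signals below background, such as Lcn2 and Cd163, limit what these arrays can show.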

Other observations

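Hepcidin, the hormone that removes ferroportin from the cell surface, has a pair of genes in the mouse. Hamp read 2.84 in DMEM/F12 and 2.99 in DMEM, below background on both arrays. Hamp2 read 4.91 in DMEM/F12 and 4.87 in DMEM, above background on both but close to it. Both were picked after their values were seen. Of 14 measured genes of hepcidin and its regulation 7 were higher in DMEM/F12 and 7 lower, and their median difference was 0.005. Hjv, the BMP co-receptor hemojuvelin, had 4.40 in DMEM/F12 and 4.88 in DMEM (-0.48), both close to background. The BMP signal transducers Smad1 and Smad5 differed by 0.22 and -0.11, and Smad7, their feedback inhibitor, by 0.23.

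In the list of lipocalins and siderophore handling 10 of 14 genes lay higher and 3 lower, against 47.2% and 45.5% of all genes. Their median was 0.11, but 9 of the 14 were not above background. With such values raised to background the median was 0.02. Bdh2, an enzyme linked to the mammalian siderophore that lipocalin 2 can carry, had 5.84 in DMEM/F12 and 6.26 in DMEM (-0.42). Ptgds, a lipocalin that makes prostaglandin D, differed by 0.22 and Lcn10 by 0.11, both with values close to background.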
